A study of Mus musculus with 4 samples.

Results

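The control Eya1-lineage kidney cells are described here by what they transcribed, from the 2 control libraries among the 4 libraries of the series. Both libraries carry the genotype Control in the sample labels, and no other criterion was used to choose them. The embryos carried CreER at the *Eya1* locus (Eya1CreER) and the R26-tdTomato reporter on a mixed C57BL/6J and 129/Sv background, and no floxed *Eya1*. Their mothers received tamoxifen by oral gavage, and the kidneys were taken about 48 h after the first dose, at E12.5 to E12.75. CreER was expressed from *Eya1* itself, so tdTomato marked cells that expressed *Eya1* during the tamoxifen pulse and the descendants of these cells, and 1 of the *Eya1* alleles was occupied by CreER. The kidneys were dissociated with dispase and collagenase IV at 37°C, the suspensions were frozen and later combined, and each library was made from 5000 tdTomato+ cells. According to the labels, 4 pregnant females gave the 6 kidneys of each genotype; the study's methods state other numbers. Because suspensions were combined before the sort, the spread between control 1 and control 2 is that of separate sorted portions of a common pool and their libraries.

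The metanephric kidney forms from reciprocal signalling between the ureteric bud and the mesenchyme that caps its tips. The cap mesenchyme holds the nephron progenitors, which self-renew or epithelialise into renal vesicles and later into podocytes and tubules. *Eya1*, a transcriptional coactivator and phosphatase that works with homeodomain partners such as *Six2*, is required for these progenitors. At this stage the cap is surrounded by *Foxd1*+ stromal progenitors and invaded by endothelial cells and macrophages.

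Reads counted on genes were 35411905 in control 1 and 37999342 in control 2. A level is given as reads, as CPM (reads per 1000000 gene reads of the library) and, where genes are compared with each other, as TPM (reads per kilobase of merged exons, scaled to 1000000 over all genes). Values after ± are the SD over n = 2 libraries throughout. Protein-coding genes were ranked by mean TPM, from 1 for the highest, among 21896 genes. A gene was called expressed at 1 CPM or more in both libraries and detected at more than 3 reads in both, and 3 reads corresponded to 0.0847 CPM in control 1 and 0.0789 CPM in control 2. Of all 52636 genes counted, 20490 (38.9%) were detected. Of the protein-coding genes, 13010 (59.4%) were expressed, the share beside which each count of expressed list members below is to be read. Such a floor holds for counting error alone, as PCR copies of a molecule are not independent reads.

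The 6 genes listed as markers of nephron progenitors of the *Eya1* lineage were all expressed, and 4 of them lay among the 1000 most abundant protein-coding genes. *Six2*, the homeodomain factor that keeps nephron progenitors undifferentiated (mm10 chr17:85684277-85688274), had 8655 reads in control 1 and 9150 in control 2. Its level was 443 ± 5.36 TPM, or 243 ± 2.56 CPM, at rank 233. *Pax2*, a paired-box factor needed for formation of the metanephric mesenchyme (chr19:44756045-44837871), had 21402 and 22950 reads. These gave 432 ± 0.888 TPM and rank 244. *Uncx*, a homeobox gene of the cap mesenchyme (chr5:139543494-139548179), had 10903 and 12281 reads, which is 389 ± 12.7 TPM at rank 284. *Sall1*, a zinc finger factor that maintains the progenitors (chr8:89027235-89044162), had 15693 and 17012 reads. Its level of 327 ± 1.84 TPM placed it at rank 370.

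*Gdnf*, the ligand by which the mesenchyme attracts the ureteric bud (chr15:7810846-7837575), had 4250 and 5159 reads, 135 ± 11.5 TPM and rank 1265. *Eya1* itself (chr1:14168954-14310235) was the lowest of the 6 per merged exon length. It had 6612 and 6420 reads, 178 ± 12.6 CPM and 88.1 ± 6.36 TPM, at rank 2271. Per merged exon length, *Six2* stood 4.82 and 5.25 times above *Eya1* in the 2 libraries, and *Pax2* 4.67 and 5.16 times above it. In the order *Six2*, *Pax2*, *Uncx*, *Sall1*, *Gdnf* and *Eya1*, no gene's 2 values overlapped those of its neighbour. This order and these ratios rested on the exon length used. With the longest transcript of each gene, *Pax2* came to 413 TPM, *Uncx* to 376 TPM, *Six2* to 341 TPM, *Sall1* to 252 TPM, *Eya1* to 121 TPM and *Gdnf* to 104 TPM, so *Six2* fell below *Pax2* and *Uncx*, *Gdnf* became the lowest, and *Six2* stood less far above *Eya1*.

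**Figure D1:**
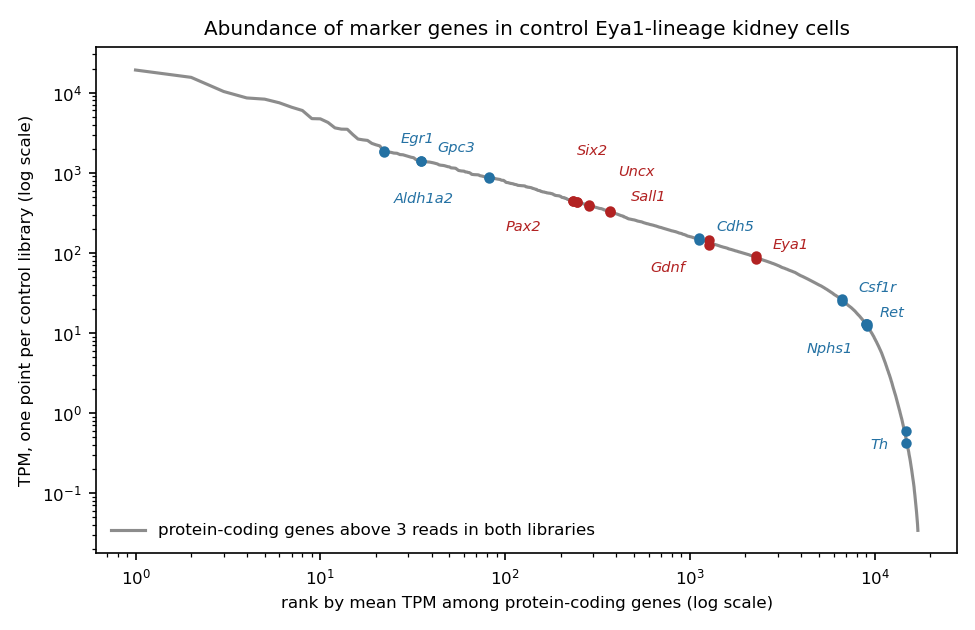
TPM (log scale) against the rank of mean TPM among protein-coding genes (log scale); the grey line joins all protein-coding genes detected in both libraries, and each named gene has a point for control 1 and a point for control 2. The 6 progenitor marker genes (red) lie between rank 233 and rank 2271, and the other named genes (blue) spread from *Egr1* at rank 22 to *Th* at rank 14715.

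The promoters of the 3 most abundant of these marker genes are shown with the CG dinucleotides they hold. They are the RefSeq windows of GRCm38.p6 from 250 bases before to 50 bases after the RefSeq start, read on the gene's strand with each CG in capitals. A CG reads the same on both strands. RefSeq windows were found for 5 of the 6 marker genes, and over all 32851 windows the median was 7 CG, while 5.43% held none.
Six2 (chr17:85688205-85688504): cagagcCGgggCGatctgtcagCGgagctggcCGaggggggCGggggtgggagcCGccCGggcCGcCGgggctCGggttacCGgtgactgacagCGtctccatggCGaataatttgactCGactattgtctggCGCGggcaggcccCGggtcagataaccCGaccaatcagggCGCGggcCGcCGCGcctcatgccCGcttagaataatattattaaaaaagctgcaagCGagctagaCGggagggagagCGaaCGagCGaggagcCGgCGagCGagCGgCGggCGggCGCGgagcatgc
Pax2 (chr19:44755502-44755801): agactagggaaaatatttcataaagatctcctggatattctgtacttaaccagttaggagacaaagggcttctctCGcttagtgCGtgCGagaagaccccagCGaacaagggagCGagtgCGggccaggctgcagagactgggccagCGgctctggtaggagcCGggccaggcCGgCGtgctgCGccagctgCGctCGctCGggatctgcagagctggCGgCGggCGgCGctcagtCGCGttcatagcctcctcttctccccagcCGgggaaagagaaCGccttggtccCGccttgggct
Uncx (chr5:139543648-139543947): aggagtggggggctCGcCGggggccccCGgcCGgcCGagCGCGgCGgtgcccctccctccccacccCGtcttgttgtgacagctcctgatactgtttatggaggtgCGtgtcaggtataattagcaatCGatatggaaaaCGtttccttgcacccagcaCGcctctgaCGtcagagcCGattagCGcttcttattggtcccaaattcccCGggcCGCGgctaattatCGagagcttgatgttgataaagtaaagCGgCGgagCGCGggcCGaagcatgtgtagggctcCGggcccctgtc

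The *Six2* window held 37 CG, and 5.58% of all windows held as many. *Uncx* had 26 CG (16.9% of windows held as many), *Pax2* 23 (21.5%), *Sall1* 18 (29.7%) and *Gdnf* 11 (41.4%). These counts describe the sequence only, and no relation to the measured levels was computed.

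Mitochondrial transcripts, ribosomal proteins and translation factors headed the whole transcriptome. Of the 25 most abundant protein-coding genes, *mt-Cytb* was first with 19174 ± 1353 TPM, and *Rplp1*, *Hsp90ab1*, *Eef1a1*, *Ptma* and *Actb* were among the first 12. Mitochondrially encoded genes took 2.45% and 2.29% of the gene reads, and ribosomal protein genes 2.97% and 3.06%. *Mdk*, which encodes the heparin-binding growth factor midkine, reached 2534 ± 81.5 TPM at rank 18. The highest non-coding gene was *H19*, an imprinted long non-coding RNA of fetal tissue, with 119055 and 125487 reads.

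Immediate-early genes and cap mesenchyme regulators were among the most abundant transcription factors. Of 623 genes in transcription factor families, 392 (62.9%) were expressed, against the 59.4% of all protein-coding genes. Their expressed members had a median of 29.7 TPM, and all expressed protein-coding genes one of 26.8 TPM. The first 5 places were those of *Egr1* (1857 ± 24.3 TPM), *Jun* (1804 ± 31.4 TPM), *Fos*, *Junb* and *Fosb*. *Tcf3*, a broadly expressed partner of lineage-specific basic helix-loop-helix factors, followed with 544 ± 15.4 TPM. *Six2*, *Pax2*, *Uncx* and *Sall1* were seventh, eighth, eleventh and fifteenth among these 623 genes, which were chosen by the symbols of their families. *Srf*, *Sox12*, *Nr2f2*, *Foxc2* and *Tead2* lay between them by mean, at levels from 328 to 421 TPM. The values of *Pax2* overlapped those of *Srf*, and those of *Sall1* overlapped those of *Tead2*.

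Of 42 regulators of nephron progenitors, 40 were expressed, against 59.4% of all protein-coding genes. The median of the 42 was 96.7 TPM where that of all protein-coding genes was 5.49 TPM. Levels above 100 TPM were found for 18 of the 42, compared with 8.83% of all protein-coding genes. The members were chosen with earlier results of these data known, so these values describe the list and test nothing. After *Six2*, *Pax2*, *Uncx* and *Sall1* came *Cited2*, a CBP/p300 partner, with 259 ± 8.59 TPM, *Sox4* with 250 ± 1.08 TPM and *Hmga2*, a chromatin protein of fetal progenitors, with 242 ± 10.2 TPM. *Sox4* shares 54.6% of its exonic bases with a gene on the opposite strand. *Wt1*, needed for survival of the mesenchyme and later for podocytes, had 233 ± 4.32 TPM, a value that overlapped those of *Hmga2* and *Sox11* and came to 360 TPM with the longest transcript. *Osr1*, which marks the earliest intermediate mesoderm, had 1887 and 1991 reads or 98.9 ± 1.33 TPM. *Cited1*, a marker of the least differentiated cap cells, had 711 and 665 reads and was lower, at 41.4 ± 4.08 TPM.

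The posterior Hox genes that specify the metanephric level were expressed in all 9 listed cases. *Hoxc10* (170 ± 1.83 TPM) and *Hoxa10* (163 ± 10.6 TPM) led them with overlapping values, and *Hoxd10* followed at 129 TPM. *Hoxd9* and *Hoxd11*, at 99.5 and 99.2 TPM, also overlapped and could not be ordered. *Hoxa11* had 1234 and 1282 reads and 58.0 ± 1.42 TPM. Of its exonic bases 35.0% are shared with a gene on the opposite strand, and over the unshared bases its level came to 85.9 TPM. *Hoxc11* was the lowest of the group at 27.9 ± 0.590 TPM.

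Other regulators were near the limit of expression. *Lin28a* had 52 and 30 reads while its paralogue *Lin28b*, an RNA-binding protein of fetal timing, had 462 and 529. *Sall4* had 48 and 55 reads and 0.979 ± 0.0439 TPM, which made it the lowest of the expressed regulators, against 327 TPM for *Sall1*.

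The Eya, Dach, Pax and sine oculis homeobox families ranged as widely. Of 21 members 12 were expressed, close to the 59.4% of all protein-coding genes. All 4 Eya genes were expressed, in the order *Eya1*, *Eya3* (63.6 ± 3.58 TPM), *Eya4* (35.7 ± 1.06 TPM) and *Eya2* (32.0 ± 0.465 TPM). *Eya1* stood 2.54 and 2.39 times above *Eya4* in the 2 libraries. Among the homeobox genes, *Six2* was followed by *Six5* (88.5 ± 3.20 TPM) and *Six4* (11.6 ± 0.111 TPM), whereas *Six3* had 6 and 2 reads and *Six6* none. *Pax8*, which acts with *Pax2* in nephron formation, reached 107 ± 1.68 TPM. *Pax1*, *Pax3*, *Pax4*, *Pax5*, *Pax7* and *Pax9* were not expressed by the 1 CPM rule. *Pax3* had 1 and 53 reads in the 2 libraries.

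**Figure D2:**
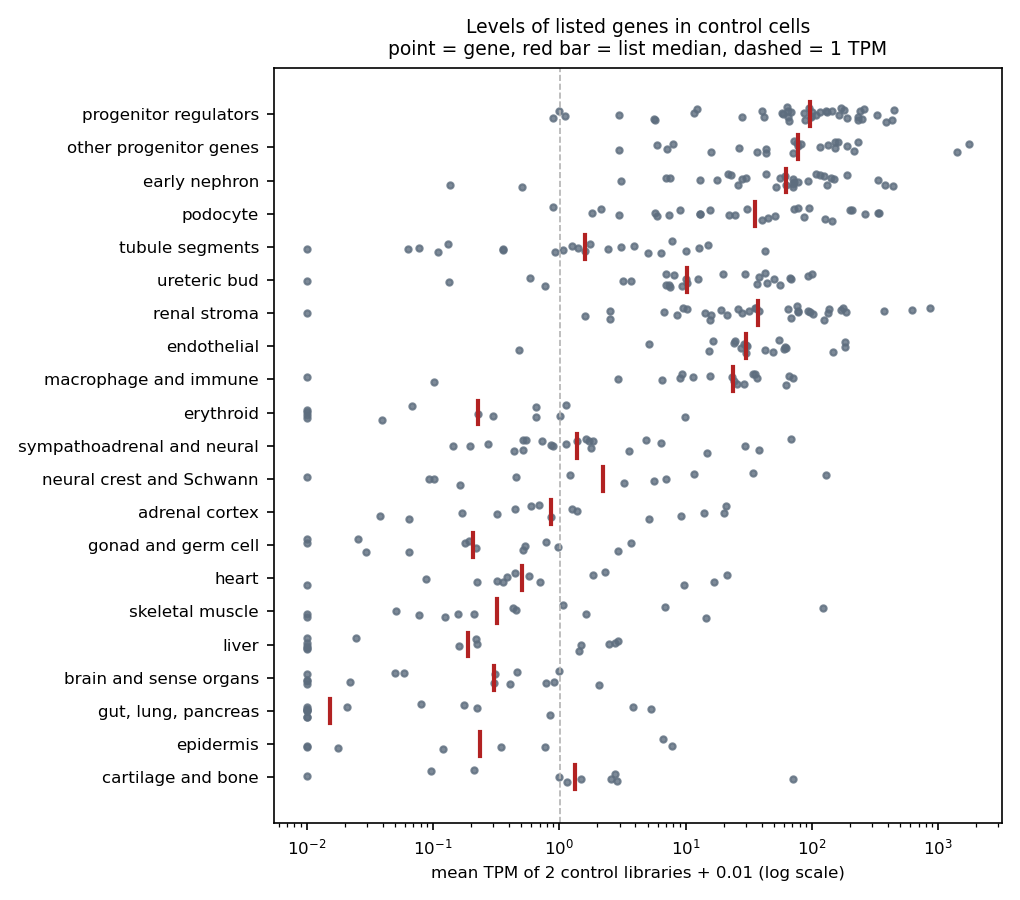
Mean TPM of the 2 control libraries plus 0.01 (log scale) of each gene in 21 lists of lineage and tissue markers; each point is a gene, the red bar is the list's median and the dashed line marks 1 TPM. The kidney progenitor lists have medians of 96.7 and 77.1 TPM, the stromal, endothelial and macrophage lists medians of 37.3, 30.3 and 23.7 TPM, and the heart, muscle, liver and gut lists medians below 1 TPM.

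Of 24 other genes active in progenitors, for ligands, adhesion molecules and intracellular proteins, 23 were expressed, against 59.4% of all protein-coding genes. Their median was 77.1 TPM. *Igf2*, the fetal insulin-like growth factor, had 93373 and 96600 reads or 1749.5 ± 47.9 TPM. Since 62.8% of its exonic bases are shared with a gene on the same strand, this value is uncertain, and it was 4753 TPM over the unshared bases. *Gpc3*, a cell-surface heparan sulfate proteoglycan that limits growth, had 34894 and 37579 reads and 1419 ± 1.40 TPM, at rank 35. The cadherin *Cdh11* reached 231 ± 1.79 TPM. *Spry1*, a feedback inhibitor of receptor tyrosine kinases, had 214 ± 7.32 TPM and *Dusp6*, a phosphatase induced by ERK signalling, 188 ± 5.85 TPM. *Bmp7*, a survival signal of the cap, had 5640 and 5939 reads and 152 ± 2.26 TPM. *Itga8*, the integrin through which the mesenchyme induces *Gdnf*, was at 76.1 ± 0.790 TPM, and its ligand *Npnt* at 72.5 ± 0.570 TPM. *Fgf20* alone fell short of 1 CPM in a library, with 32 and 63 reads.

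Genes of the first steps of nephron formation were also abundant, with a median of 62.1 TPM. Of 33, 31 were expressed, against 59.4% of all protein-coding genes. *Sfrp2*, a secreted Wnt modulator, had 442 ± 5.86 TPM, and *Ccnd1*, cyclin D1, 379 ± 1.72 TPM. *Wnt4*, which drives the transition of the mesenchyme to epithelium, had 7376 and 7777 reads or 190 ± 2.67 TPM. The renal vesicle factor *Lhx1* had 4828 and 5274 reads and 131 ± 1.44 TPM. Notch targets were mixed, because *Hes1* reached 124 ± 1.93 TPM, *Hey1* 72.0 ± 8.41 TPM and *Hes5* only 6 and 7 reads. Among regulators of the segmented nephron, *Hnf4a* stood at 21.6 ± 1.64 TPM and *Irx1* at 13.1 ± 0.833 TPM.

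All 28 podocyte genes were expressed, where 59.4% of all protein-coding genes were. Their median was 35.2 TPM, but their levels ran from 0.876 to 339 TPM. The first 5 were *Actn4* (339 ± 2.99 TPM), *Foxc2* (331 ± 3.37 TPM), *Nes* (265 ± 15.7 TPM), *Vegfa* (207 ± 5.18 TPM) and *Podxl* (200.1 ± 1.43 TPM). *Actn4*, *Nes* and *Vegfa* are used in many cells, *Foxc2* is a factor of nephron precursors and podocytes, and *Podxl* encodes the surface sialomucin podocalyxin. The slit diaphragm gene *Nphs1*, nephrin, was lower, with 780 and 852 reads or 13.0 ± 0.143 TPM. *Col4a3*, a collagen of the mature glomerular basement membrane, had 117 and 46 reads and was the lowest.

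Genes of mature tubule segments were low. Of 23, 13 were expressed with a median of 1.59 TPM, and the 56.5% share was near the 59.4% of all protein-coding genes. *Calb1*, a calcium-binding protein of the distal tubule and ureteric bud, was highest at 42.7 ± 1.95 TPM. *Lrp2*, megalin, followed at 15.1 ± 0.876 TPM. *Umod*, the uromodulin gene of the thick ascending limb, had 5 reads in control 1 and 0 in control 2, and *Aqp2*, the collecting duct water channel, had 9 and 0.

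Markers of other kidney cell types were present in both libraries of sorted cells, and their part in the levels above was not tested. In such bulk samples, fewer cells of a type and less RNA per cell cannot be told apart. Of 27 ureteric bud genes 24 were expressed, against 59.4% of all protein-coding genes. Their summed levels were 715 and 750 TPM, with a median of 10.3 TPM. Keratin 18 (*Krt18*) had 99.5 ± 2.73 TPM, *Epcam* 92.9 ± 2.28 TPM and E-cadherin (*Cdh1*) 68.1 ± 8.01 TPM. *Ret*, the GDNF receptor of the bud tip, had 750 and 856 reads or 12.5 ± 0.525 TPM, and *Wnt11*, a *Ret* target of the tip, 823 and 715 reads. *Wnt9b*, the inducer of nephrogenesis made by the bud, had 240 and 364 reads. The urothelial gene *Upk3a* was at 0 in both libraries.

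Among stromal genes 33 of 36 were expressed, against 59.4% of all protein-coding genes. Their median was 37.3 TPM, with summed levels of 3758 and 3774 TPM. *Aldh1a2*, which makes retinoic acid in the stroma and mesenchyme, had 17733 and 19495 reads or 866 ± 13.5 TPM, at rank 82. *Foxd1*, the defining factor of the cortical stroma, had 6446 and 6580 reads and 136 ± 5.001 TPM. *Six2* stood 3.21 and 3.32 times above *Foxd1*. *Pdgfrb*, a receptor of mural and stromal cells, reached 102 ± 6.15 TPM and *Pdgfra* 67.8 ± 2.04 TPM. *Ren1*, renin, had 32 and 47 reads. *Dlk1* was listed at 0 in both libraries, and whether its reads were lost in mapping or counting was not tested.

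All 20 endothelial genes were expressed, where 59.4% of all protein-coding genes were, and their summed levels were 1071 and 1078 TPM. *Plvap*, a protein of fenestrated endothelium, had 183 ± 0.849 TPM, *Cldn5*, a tight junction claudin, 182 ± 11.2 TPM and VE-cadherin (*Cdh5*) 5845 and 5911 reads or 147 ± 6.41 TPM. The VEGF receptor *Kdr* was at 49.0 ± 2.79 TPM. Only *Vwf*, with 88 and 53 reads, was below 1 TPM. Macrophage and immune genes were expressed in 16 of 18 cases, again against 59.4%, with summed levels of 470 and 456 TPM. *Csf1r*, the receptor that sustains macrophages, had 1315 and 1509 reads or 25.7 ± 1.18 TPM, and the complement genes *C1qa*, *C1qb* and *C1qc* lay between 35.4 and 62.5 TPM. *Cd3e*, a gene of T lymphocytes, had 6 and 1 reads.

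Erythroid genes were nearly absent. Of 13, only *Epor* was expressed in both libraries, with 224 and 148 reads, against 59.4% of all protein-coding genes. The count was 2, *Epor* included, when control 1 was taken by itself, and the summed levels were 16.8 and 11.1 TPM. *Alas2*, the haem synthesis enzyme of red cells, had 5 and 25 reads. The globins *Hba-a1*, *Hba-a2*, *Hbb-bs* and *Hbb-bh1* were at 0 in both libraries. The near-identical adult globin copies are uncertain, because 9.06% of all recorded reads in each library had no unique position and were not counted.

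Receptors of the pathways that act on the cap were examined next. Among 14 FGF receptors and ligands 11 were expressed, against 59.4% of all protein-coding genes. *Fgfr1* had 23560 and 25800 reads, 263 ± 3.37 TPM, and *Fgfr2* 7819 and 7849 reads, 80.0 ± 3.90 TPM. *Fgfr1* thus stood 3.15 and 3.44 times above *Fgfr2*, the receptors through which FGF signalling maintains the progenitors. With the longest transcript their levels came to 397 and 144 TPM. *Fgfr4* (27.5 ± 3.92 TPM) and *Fgfr3* (16.4 ± 1.19 TPM) were lower. Of the ligands, *Fgf8*, which sustains nascent nephrons, was highest at 71.1 ± 0.676 TPM, followed by *Fgf10* at 13.4 ± 1.89 TPM. *Fgf9*, which acts with *Fgf20* to keep progenitors, had 264 and 262 reads or 5.97 ± 0.339 TPM.

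For GDNF signalling, the ligand was higher than its receptors. *Gdnf* stood 10.4 and 11.1 times above *Ret* per exon length. *Gfra1*, the co-receptor that binds GDNF, had 3087 and 3261 reads or 61.1 ± 0.773 TPM, which was 5.08 and 4.70 times the level of *Ret*. Of the 9 listed ligands and receptors of this family 8 were expressed, against 59.4% of all protein-coding genes.

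Of 21 Wnt receptors and modulators 20 were expressed, with a median of 32.0 TPM. *Ptk7*, a co-receptor of planar cell polarity, was highest with 17648 and 19111 reads or 360 ± 1.75 TPM. Among the frizzled receptors, *Fzd2* had 184 ± 0.780 TPM, and *Fzd1* (154 ± 9.31 TPM) and *Fzd7* (153 ± 2.16 TPM) could not be ordered. *Lrp6*, a co-receptor of the canonical pathway, had 85.1 ± 2.94 TPM and *Lrp5* 59.9 ± 1.21 TPM. *Lgr4*, an R-spondin receptor, reached 123 ± 8.59 TPM and *Lgr5* 2.51 ± 0.00136 TPM. *Fzd6* was listed at 0 reads in both libraries. It shares 3.155% of its exonic bases with a gene on the opposite strand, and whether its reads were lost in mapping or counting was not tested. Of 23 Wnt and R-spondin ligands 12 (52.2%) were expressed, near the 59.4% of all protein-coding genes. *Wnt4* led with 190 TPM and *Rspo1*, an amplifier of Wnt signalling, followed at 154 ± 2.70 TPM.

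*Notch2*, the receptor needed for proximal nephron fates, had 11310 and 12101 reads or 114 ± 0.416 TPM. *Notch3* (90.2 ± 4.32 TPM) and *Notch1* (74.9 ± 2.90 TPM) followed without overlap. The ligand *Jag1* was at 149 ± 0.415 TPM and *Dll1* at 43.0 ± 2.66 TPM, while *Notch4*, an endothelial receptor, was at 19.1 ± 2.15 TPM. In the BMP and TGF-β group 14 of 16 were expressed, against 59.4% of all protein-coding genes. *Tgfbr1* (109 ± 5.12 TPM) and *Bmpr1a* (107 ± 6.13 TPM) led with overlapping values, and *Bmpr2*, the type II receptor, had 38.3 ± 2.98 TPM. All 7 hedgehog receptors and co-receptors were expressed, headed by the co-receptor *Gas1* with 9043 and 9312 reads or 327 ± 10.03 TPM. *Smo*, the transducer of the pathway, was at 207 ± 5.99 TPM, and *Ptch1*, both receptor and target, at 61.0 ± 2.87 TPM.

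All 7 genes of the retinoid group were expressed, where 59.4% of all protein-coding genes were. *Rxrb* was highest at 71.4 ± 0.887 TPM, *Rara* followed at 61.5 ± 2.62 TPM, and only *Rxrg*, at 3.87 ± 0.288 TPM, was below 10 TPM. Of 30 further receptors, all tyrosine kinases except *Igf2r*, 28 were expressed. *Igf2r*, the mannose 6-phosphate receptor that clears *Igf2*, had 186 ± 1.65 TPM, or 2.62 and 2.74 times the level of the signalling receptor *Igf1r*. *Ephb4* reached 184 ± 6.31 TPM and *Ddr1*, a collagen receptor, 114 ± 0.0746 TPM. Of 21 guidance, cytokine and G protein-coupled receptors 20 were expressed, with *Plxnd1* at 286 ± 0.289 TPM and *Plxnb2* at 263 ± 12.4 TPM. *Robo2*, which restricts *Gdnf* to the posterior mesenchyme, had 12547 and 12601 reads or 78.1 ± 3.78 TPM.

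**Figure D3:**
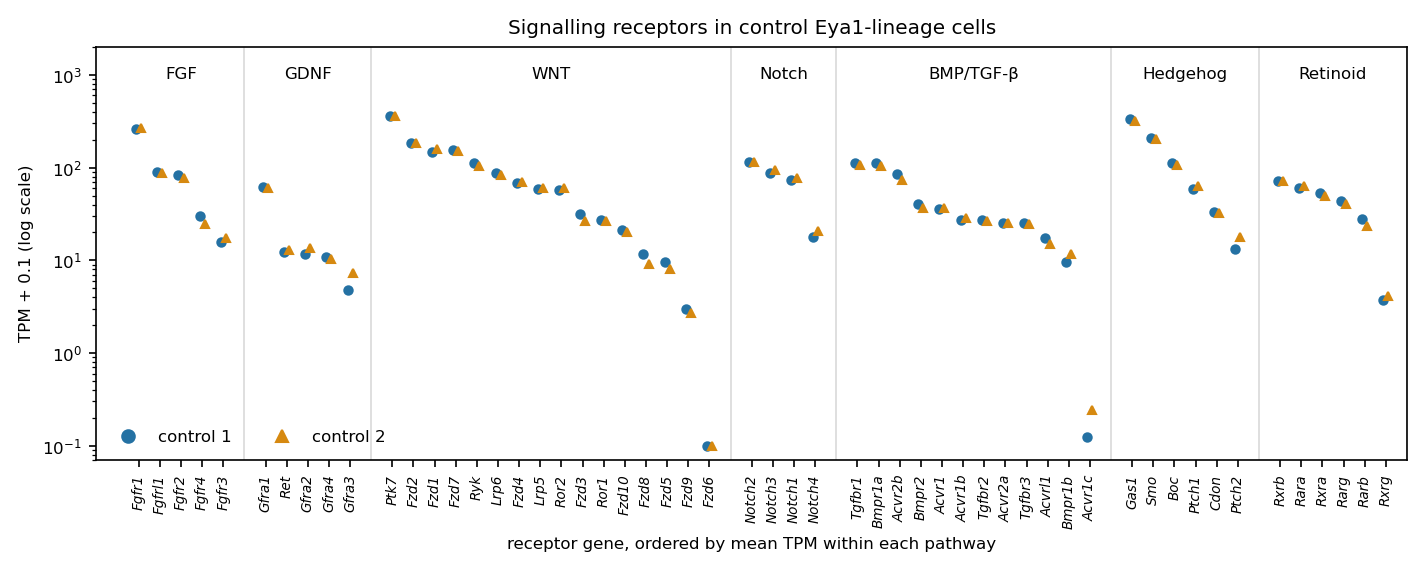
TPM plus 0.1 (log scale) of receptor genes grouped by pathway and ordered by mean TPM within each, with control 1 as circles and control 2 as triangles. *Fgfr1*, *Gfra1*, *Ptk7*, *Notch2*, *Tgfbr1*, *Gas1* and *Rxrb* head their groups, and *Fzd6*, listed at 0 reads in both libraries with any loss in mapping or counting not tested, lies on the floor of the axis.

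*Gpc3*, *Col4a1*, *Col1a1* and *Sparc*, which encodes osteonectin, led the listed matrix genes. All 11 fibrillar collagen genes were expressed, where 59.4% of all protein-coding genes were, and their median was 67.8 TPM. *Col1a1* had 37471 and 39763 reads or 620 ± 5.86 TPM, and *Col3a1* 33687 and 36036 reads or 374 ± 1.41 TPM. *Col1a2* (185 ± 1.24 TPM) and *Col5a1* (184 ± 3.06 TPM) overlapped. Of 28 basement membrane genes 27 were expressed, with a median of 87.0 TPM. *Col4a1* was highest with 57254 and 60443 reads or 831 ± 10.9 TPM, 1.62 and 1.59 times its partner chain *Col4a2*. The collagen IV chains of mature glomeruli were far lower, with *Col4a4* at 2.13 ± 0.152 TPM and *Col4a3* at 0.876 ± 0.576 TPM.

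Among the laminins, *Lamc1* (431 ± 6.84 TPM) and *Lamb1* (254 ± 7.68 TPM) exceeded every listed alpha chain. *Lama1*, the alpha chain of early epithelial basement membranes, had 110 ± 0.0931 TPM, 1.34 and 1.39 times *Lama5*. *Lama3* and *Lamb3*, chains of the epidermal laminin, stood at 0.833 ± 0.0265 and 0.421 ± 0.0572 TPM. *Frem1*, *Frem2* and *Fras1*, whose proteins form the Fraser complex beneath epithelia, were at 122, 101 and 70.1 TPM.

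In the interstitial matrix 22 of 26 genes were expressed, against 59.4% of all protein-coding genes. Fibronectin (*Fn1*) had 46432 and 51104 reads or 439 ± 7.19 TPM, the microfibril gene *Mfap2* 388 ± 14.7 TPM and the proteoglycan *Vcan* 377 ± 8.40 TPM. All 20 genes of heparan sulfate proteoglycans and their enzymes were expressed, and *Gpc3* stood 8.19 and 7.68 times above *Gpc1*, the next glypican. Of 24 integrins 22 were expressed but the median was 4.40 TPM. *Itgb1*, the common beta chain, had 517 ± 8.69 TPM and was 6.82 and 6.76 times as high as *Itga8*.

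The REST repressor complex and its partners were listed because the study addressed repression by *Eya1*. Of 22 genes 21 were expressed, against 59.4% of all protein-coding genes, with a median of 106 TPM. *Rest* itself had 8780 and 9123 reads or 131 ± 3.18 TPM. The chromatin remodellers *Smarca4* (555 ± 17.7 TPM) and *Chd4* (522 ± 5.31 TPM) led the list. *Hdac2* had 285 ± 19.9 TPM, 2.59 and 2.28 times the 117 ± 2.64 TPM of *Hdac1*. The corepressors *Rcor2* (134 ± 3.68 TPM) and *Rcor1* (95.03 ± 4.85 TPM) were well above *Rcor3*, at 4.62 ± 0.429 TPM. *Kdm1a*, the histone demethylase held by these corepressors, reached 226 ± 8.24 TPM.

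Genes of cell division were abundant, with a median of 153 TPM. Of 24, 23 were expressed, against 59.4% of all protein-coding genes. *Mki67* had 35883 and 36781 reads or 381 ± 12.9 TPM, *Top2a* 357 ± 8.59 TPM, and the replication helicase genes *Mcm2* to *Mcm7* lay between 180 and 345 TPM. The inhibitor *Cdkn1c* was higher than all of them, at 1050.4 ± 27.7 TPM, although 30.7% of its exonic bases are shared with a gene on the opposite strand. *Cdkn1a* had 9.19 ± 0.0953 TPM, and *Cdkn2a* 0 and 7 reads. Genes that respond to dissociation were all expressed (20 of 20), with a median of 160 TPM. *Egr1* had 76870 and 81152 reads, *Jun* 51981 and 57296, *Fos* 30834 and 34106 and *Ier2* 13777 and 15405. The cells had been digested at 37°C and frozen before the sort, and the part of these steps in the levels was not tested.

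Genes that define tissues outside the kidney were mostly low. Together 103 genes of gonad, heart, skeletal muscle, liver, brain, gut, lung, pancreas, epidermis, cartilage and bone were listed, and 20 of them were expressed, where 59.4% of all protein-coding genes were. At most 3 reads in both libraries were found for 34 of the 103, compared with 24.2% of all protein-coding genes. No read in either library was found for 24 of the 103, a share near the 20% of all protein-coding genes. Their median was 0.215 TPM, where that of all protein-coding genes was 5.49 TPM. The myogenic factors *Myf5* and *Myf6* had 0 reads, the cardiac factor *Nkx2-5* 0, the insulin genes *Ins1* and *Ins2* 0, and the keratins *Krt5* and *Krt14* of basal epidermis 0. For each of these, by counting error alone, a count of 0 allows up to 3 reads, that is up to the 0.0847 and 0.0789 CPM given above. Whether reads of these genes were lost in mapping or counting was not tested.

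Exceptions stood out in several of these lists. *Des*, desmin, had 4017 and 4695 reads or 122 ± 7.18 TPM, whereas the muscle factors *Myod1* and *Myog* had 5 and 0 and 0 and 2 reads. *Col2a1*, a collagen of cartilage and of early mesenchyme, had 5788 and 6603 reads or 70.5 ± 2.94 TPM, while *Acan*, the aggrecan gene, had 9 and 20 reads. *Actc1*, cardiac actin, had 242 and 422 reads and *Gata6* 1129 and 944. None of the 14 gonad and germ cell genes reached 1 CPM in both libraries, but 1 did in control 2 and 2 passed a limit of 0.5 CPM or of 1 TPM.

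Genes of the sympathoadrenal lineage and of neurons were expressed in 9 of 23 cases (39.1%), against 59.4% of all protein-coding genes, with a median of 1.36 TPM. A limit of 0.5 CPM was passed by 14 of the 23 and by 13807 of all 21896 protein-coding genes. *Th*, tyrosine hydroxylase of catecholamine synthesis, had 9 and 14 reads. *Gata2* (38.3 ± 2.49 TPM), *Gata3* (29.6 ± 2.03 TPM, also a ureteric bud gene) and *Uchl1* (68.4 ± 9.45 TPM) were higher. *Chga* had 44 and 52 reads and *Chgb* 68 and 190. In the neural crest and Schwann cell list 5 of 12 (41.7%) were expressed, also against 59.4%. *Ngfr*, the low-affinity neurotrophin receptor, had 4136 and 4373 reads or 130 ± 1.57 TPM, yet *Sox10*, the defining factor of the list, had 0 and 5 reads. Of 15 adrenal cortex genes 4 (26.7%) were expressed, against the same 59.4%, and 7, these 4 included, reached 1 CPM in control 1. *Star*, the steroidogenic cholesterol carrier, had 404 and 304 reads, *Nr5a1*, the adrenal and gonadal factor, 65 and 34, and the steroid hydroxylase gene *Cyp17a1* 0 and 3.

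The agreement of the libraries sets the precision of these levels. Over the 20490 detected genes the log2 CPM of the libraries had a Pearson correlation of 0.976 across genes, a description only since genes are not independent replicates. Among 12955 genes with a mean of at least 100 reads, the SD of the log2 ratio of control 2 to control 1 was 0.27, and 108 genes (0.834%) differed by over 2-fold. Counts differed more than sampling noise allows, with a chi-square of 9.68 per degree of freedom. The biological coefficient of variation (the relative spread between libraries beyond counting error) was 37.5% for genes of 30 to 100 mean reads and 5.84% above 1000. The values of *Lin28a*, *Sall4* and of most non-kidney genes belong to the noisy end of this scale.

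**Figure D4:**
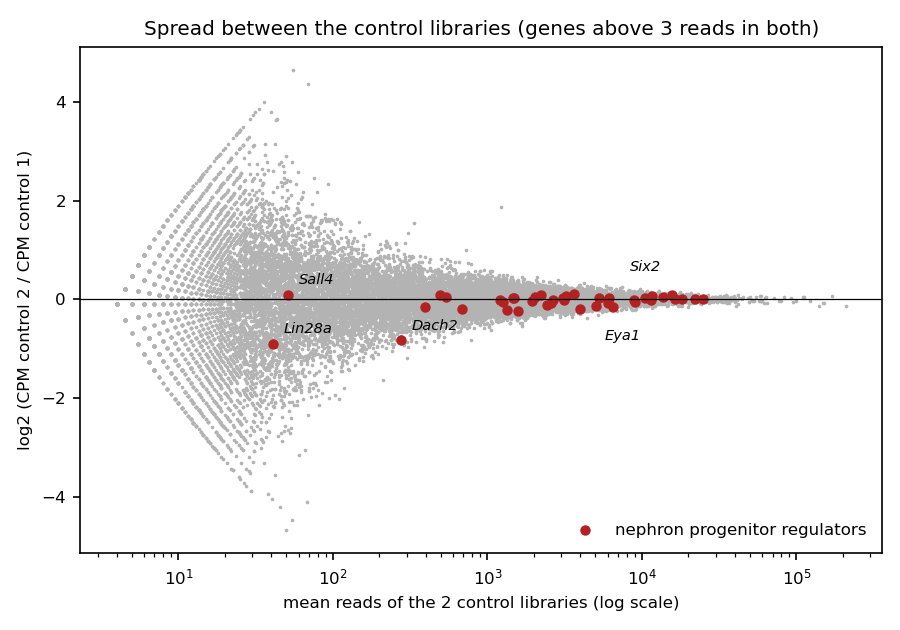
Log2 ratio of CPM in control 2 to control 1 against mean reads (log scale) for all genes with more than 3 reads in both libraries (grey) and for nephron progenitor regulators of the list (red). The spread narrows with depth, *Eya1* and *Six2* lie near 0, and *Lin28a*, with 52 and 30 reads, is the marked regulator farthest from 0.

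Among genes with a mean of at least 100 reads, the 5 largest differences between the libraries in each direction were in genes outside the lists. *Zfp941* (172 and 46 reads) and *Nostrin* (181 and 56 reads), which encodes an endothelial nitric oxide synthase regulator, were lower in control 2. *Gm47283*, annotated on the Y chromosome, had 498 and 1954 reads, and *Tssk6*, *Smpd3* and *Hfm1* were also higher in control 2. The listed Y-linked genes *Ddx3y* (2718 and 3037 reads) and *Eif2s3y* (968 and 963 reads) were more even. *Xist*, which is transcribed from the inactive X chromosome, had 8723 and 8350 reads. Reads of *Xist* and of Y-linked genes were thus present in each library.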

How the data were processed

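RNA of FACS-sorted tdTomato+ control cells was sequenced by the authors as random-primed, stranded SMARTer libraries on a NextSeq 500 (single-end, 75 bases). The authors mapped reads to mm10 with HISAT2 and deposited raw HTSeq-count counts on Ensembl release 90 genes, without normalization. The strand setting of the counting is not given in the sources used here.

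Lines for reads outside genes were dropped. Of all recorded reads, 13.9% and 12.9% lay on no gene, 3.09% and 3.13% were ambiguous, and 6.32% and 6.69% were not aligned. CPM used the total of gene reads. TPM used merged exon lengths of GENCODE M21, which held 52489 of the 52636 identifiers. Genes sharing exons, or with near-identical copies, are uncertain. Scaling factors and dispersions came from edgeR 4.0.16 and DESeq2 1.42.0 in R 4.3.3, levels from Python 3.11.15 with pandas 2.3.3. The calculations were tested on simulated data.

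Named genes are the members of 42 lists (715 genes, 1 unmatched), the 25 highest protein-coding genes and transcription factors, the 5 highest non-coding genes, and the 5 largest library differences in each direction. A few imprinted and mitochondrial genes were added after their values were seen. The members and lists were chosen with earlier results of these data known. With a single group of 2 libraries there was no test, and orders rest on whether the 2 values of neighbouring genes overlapped. The Eya1cKO libraries were not used here. Results of some listed genes are not reported here, although counts and medians of their lists include them.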

Additional observations from a re-analysis of the deposited data

How the results depend on the processing

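No paired analysis was possible because a single group was described, with no comparison between groups. Protein-coding genes at 1 CPM or more in both libraries numbered 8300 of 15421 once genes sharing exonic bases were left out, against 13010 of 21896, since fewer genes were counted. They numbered 12201 to 13807 under TMM or DESeq2 scaling, limits of 0.5 CPM, 2 CPM or 1 TPM, thinning to 17000000 gene reads, and without mitochondrial and ribosomal protein genes in the total. With either library alone they numbered 13409 to 13425, detected genes 22953 to 23118, and expressed list members 544 to 550 against 530 with both. Of the 42 lists, the count of expressed members moved beyond 1.5-fold in 0 under the scalings and in 1 to 4 under the other limits, thinning or a left-out library. It did so in 13 without sharing genes, but there the lists held fewer genes, and counts rather than shares were compared. Heparan sulfate genes went from 20 of 20 to 13 of 13, and BMP and TGF-β receptors from 14 of 16 to 8 of 9. Gut, lung and pancreas genes went from 2 of 14 to 1 of 12. Expressed adrenal cortex genes went from 4 to 8 at 0.5 CPM and 7 without control 2, sympathoadrenal and neural genes from 9 to 14 at 0.5 CPM, gonad and germ cell genes from 0 to 2 at 0.5 CPM or 1 TPM and 1 without control 1, erythroid genes from 1 to 2 without control 2, skeletal muscle genes from 4 to 7 without control 1, liver genes from 3 to 0 at 2 CPM and 1 when thinned, and brain and sense organ genes from 1 to 0 at 2 CPM or thinned and to 2 at 0.5 CPM or without either library. Per-length levels of 48 named genes moved beyond 1.5-fold in 3 with the longest transcript (at most 1.79-fold), in 1 over unshared bases (*Igf2*, 2.72-fold; an alternative chosen after seeing the data), and in 0 with either library left out (at most 1.09-fold). With n = 2 no sample could be examined as an outlier, and depth limits genes below about 100 reads.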

Other observations

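Imprinted genes fell into separate ranges, as chosen after their values were seen. *H19* (5238 ± 74.5 TPM), *Mest* (1183 ± 2.67 TPM), *Grb10*, which encodes a growth factor receptor adaptor (689 ± 8.73 TPM), *Peg3* (395 ± 5.29 TPM) and *Plagl1* (166 ± 7.10 TPM) were abundant. In contrast, the Dlk1-Dio3 cluster on chromosome 12 was near 0 at several genes. *Dlk1* and *Rtl1* had 0 reads in both libraries, *Meg3* 1 and 0, and *Rian* 1 and 2. Within the same cluster *Mirg* had 181 and 194 reads and *Dio3* 87 and 82. *Meg3* shares 8.29% of its exonic bases with another gene and *Dlk1* none. Whether reads of *Dlk1*, *Rtl1*, *Meg3* and *Rian* were lost in mapping or counting was not tested, so their low counts may not be low levels.

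Read counts of mitochondrial genes were uneven, and whether reads of the low ones were lost in mapping or counting was not tested, so these values may not be levels. *mt-Cytb*, *mt-Co1*, *mt-Nd1*, *mt-Nd2*, *mt-Nd4*, *mt-Nd5* and *mt-Nd6* had between 40497 and 210683 reads in each library. Reads of *mt-Co2* were only 459 and 988, of *mt-Co3* 164 and 449, of *mt-Atp6* 162 and 504, of *mt-Atp8* 53 and 168, of *mt-Nd3* 35 and 87, and of *mt-Nd4l* 38 and 87, all higher in control 2. *mt-Nd6*, the only protein gene on the other strand of the mitochondrial genome, was at rank 5 among protein-coding genes with 8295 ± 515 TPM.

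Genes sharing nearly all their exonic bases with others were often without reads. Of 47 protein-coding genes with at least 95% of their exonic bases shared with genes on the opposite strand only, 43 (91.5%) had 0 reads in both libraries. With at least 95% shared on the same strand it was 130 of 142 (91.5%), and with 50 to 95% shared on the opposite strand only, 21 of 143 (14.7%). The share was 24.3% (3748 of 15421) among genes with no shared exonic bases.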
